A study of Mus musculus with 6 samples.

Results

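The genes described here make nitric oxide from arginine or supply what that reaction needs: Nos2, Gch1, Slc7a1, Slc7a2, Ass1 and Asl. They were chosen by name, and all 6 were found among the 19386 genes of the authors' deposited table. Their RNA was measured in bone marrow-derived macrophages, cells grown from the marrow of wild-type C57BL/6 mice with medium conditioned by L929 cells as the source of growth factor, and harvested on day 11. One group of 3 libraries came from mice exposed to cigarette smoke and the other group of 3 from mice kept in room air. The descriptions of all 6 libraries carry the code ctl. The labels give neither the age or sex of the animals nor the length of the exposure, and they do not say whether a library is 1 mouse. The exposure was of the animal, so the cells had been in culture without smoke when they were harvested.

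Inducible nitric oxide synthase, encoded by Nos2, turns arginine into nitric oxide and citrulline, and it is off in resting macrophages until microbial products or interferon gamma switch it on. It needs tetrahydrobiopterin, a cofactor whose synthesis starts with GTP cyclohydrolase 1, the product of Gch1. The cationic amino acid transporters encoded by Slc7a1 and Slc7a2 bring arginine into the cell, and argininosuccinate synthase (Ass1) and argininosuccinate lyase (Asl) rebuild arginine from citrulline. In mouse macrophages Nos2 is the textbook gene of the classical, bactericidal state.

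The deposited expression values are group means of normalized counts, which are counts divided by a size factor for the depth of each library. Because each mean is a sum of whole reads with fixed weights, the reads of single libraries could be worked out for genes of low or moderate count. Each of the 6303 room air means and 5910 cigarette smoke means above 0 and under 5 had exactly 1 solution in whole reads. The size factors were 2.73, 2.58 and 1.67 in room air and 3.42, 1.06 and 0.662 in cigarette smoke, so the libraries are named below as the deepest, middle and shallowest of their group. No label or header ties them to the replicate numbers, and they were not matched to those numbers by their values. Reads were resolved for 3 of the 6 genes (Nos2, Gch1 and Slc7a2), while Ass1, Asl and Slc7a1 had several solutions and are known as group means only. Where nothing says that libraries came from separate animals, p-values measure only a spread between libraries, which may be technical. In the authors' deposited fit that spread is shared with 18 libraries that are not analysed here.

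The labelled cell type was checked against its markers. All 10 macrophage markers were in the table, with summed group means of 53569 (room air) and 55542 (smoke) normalized counts, and none of the 10 passed an adjusted p of 0.05. Of the 7 erythroid markers only Klf1 was in the table, with means of 0 in room air and 0.508 in smoke. The neutrophil list was carried by Csf3r, which macrophages also express, at 301.3 and 316.6. The remaining neutrophil markers in the table, S100a8, Ngp and Cxcr2, summed to between 0 and 0.940 in each library. Lists of other cell types stood apart in single libraries. The 7 stromal markers summed to 127.7 in the deepest room air library and to between 1.51 and 19.3 in the other 5 libraries. The 4 dendritic cell markers in the table summed to 265.2 in the deepest cigarette smoke library and to between 25.7 and 41.4 in the others, nearly all of it Itgax. In bulk RNA, fewer cells that express a gene and less of its RNA per cell cannot be told apart.

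Per kilobase of transcript, the genes that rebuild arginine were the most abundant and Slc7a2 the least. In room air the order of levels was Ass1 (150.2 normalized counts per kilobase), Asl (78.6), Slc7a1 (29.9), Gch1 (29.1), Nos2 (3.76) and Slc7a2 (2.81). After smoke it was Ass1 (186.9), Asl (89.4), Slc7a1 (42.5), Gch1 (39.0), Nos2 (25.5) and Slc7a2 (4.18). Among neighbours whose libraries are known, Nos2 and Slc7a2 overlapped in room air, at 2.40 to 6.16 and 1.86 to 3.79 per kilobase. After smoke all Nos2 libraries, at 8.97 to 39.3, lay above all Slc7a2 libraries, at 2.14 to 6.401. Per kilobase of the longest transcript, Gch1 lay above Nos2 within each smoke library. The values were 45.7 against 39.3 in the deepest, 36.4 against 8.97 in the middle and 34.9 against 28.1 in the shallowest. This order depends on the length used: per kilobase of all exons the smoke mean was 24.2 for Nos2 and 21.9 for Gch1.

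**Figure D1:**
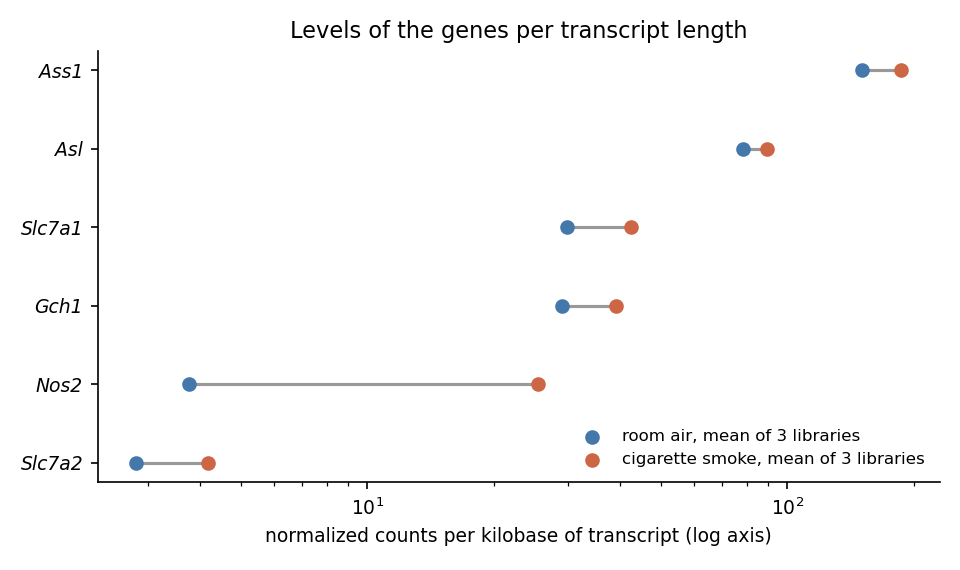
Each row is 1 gene and the horizontal log axis gives normalized counts per kilobase of its longest transcript, with a blue point for the room air mean and an orange point for the cigarette smoke mean of 3 libraries each. The 4 most abundant genes keep their order, and Nos2 moves from 3.76 to 25.5.

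All 6 genes had a higher mean after cigarette smoke, and 2 of them, Nos2 and Gch1, were called by the authors' deposited table at an adjusted p under 0.05. Over the 12082 genes tested in that table, 502 (4.15%) were called higher and 427 (3.53%) lower, and 49.7% had a log2 fold change above 0. The median log2 fold change there was 0.48 over the 6 genes and -0.0029 over all genes tested. Each value is also given after a smooth trend of the fold changes in GC content and transcript length was removed. After that step 153 of 12071 genes (1.27%) were called, 100 (0.828%) higher and 53 (0.439%) lower, and Nos2 and Gch1 kept their call.

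Nos2 (ENSMUSG00000020826.8, chromosome 11, 78920787 to 78960254, plus strand, GRCm38) was higher after smoke in every library. In room air it had 31, 26 and 43 reads in the deepest, middle and shallowest library, or 11.4, 10.1 and 25.8 normalized counts. In cigarette smoke it had 563, 40 and 78 reads, or 164.8, 37.6 and 117.8 normalized counts. The groups did not overlap, the lowest smoke library lying at 37.6 and the highest room air library at 25.8. Within smoke the deepest library was 4.38 times the middle one. The mean rose from 15.7 ± 8.74 to 106.7 ± 64.3 (SD, n = 3 each). The log2 fold change taken from the authors' deposited table was 2.78 (SE 0.73 and adjusted p = 0.00603), which is 6.85-fold with a 95% interval of 2.55 to 18.4. It was 2.72 with an adjusted p of 0.0237 after the trend was removed.

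The exact two-sided permutation test on the 6 normalized counts of Nos2 gave p = 0.1, and no smaller p is possible with 3 libraries in each group. Of the 5006 tested genes with reads for each library, 741 (14.8%) had all smoke libraries above all room air libraries and 659 (13.2%) had all below. Nos2 and Gch1 were the resolved members with such a separation. Of 179 genes called higher in the authors' deposited table with reads for each library, 145 (81.0%) were separated in this way.

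Gch1 (ENSMUSG00000037580.10, chromosome 14, 47153895 to 47189413, minus strand, GRCm38) showed a smaller rise that was present in all 3 smoke libraries. Its room air libraries were close to each other, at 275, 266 and 171 reads or 100.9, 103.0 and 102.6 normalized counts. The smoke libraries had 548, 136 and 81 reads, or 160.4, 127.8 and 122.3 normalized counts, all above the room air values. The means were 102.2 ± 1.12 and 136.8 ± 20.6 (SD, n = 3 each). The log2 fold change taken from the authors' deposited table was 0.47 (SE 0.14 and adjusted p = 0.0167), or 1.38-fold with a 95% interval of 1.15 to 1.66, and 0.54 with an adjusted p of 0.0136 after the trend was removed. The exact permutation test again gave p = 0.1. Gm18811 overlaps Gch1 on its own strand and Gm49134 on the other, so reads of Gch1 could be shared with them. The solution taken for Gch1 was 1 of 9912 pairs of whole-number solutions, and it gave the deposited fold change within 7.36e-07 on the log2 scale, where the next best pair missed it by 2.56e-05.

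The bases before the start of Gch1 are shown because Gch1 is the called member whose promoter is in the sequence table used here. They are the 250 bases at chr14:47189414-47189663 (RefSeq window, GRCm38.p6, minus strand), which end at the base before the annotated start. Capitals mark matches, on either strand, to the TATA box (searched as TATAAA), the CCAAT box (searched by those letters), the GC box (searched as GGGCGG) and the half-site of the cAMP response element (searched as TGACG). None of these matches overlaps another.
Gch1: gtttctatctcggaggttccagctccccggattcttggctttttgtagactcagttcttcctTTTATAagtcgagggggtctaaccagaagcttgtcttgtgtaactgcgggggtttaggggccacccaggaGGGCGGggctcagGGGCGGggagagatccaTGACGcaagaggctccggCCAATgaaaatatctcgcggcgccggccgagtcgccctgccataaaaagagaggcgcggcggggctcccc
With the base before the start as -1, the CCAAT box match lies at -70 to -66, the cAMP half-site at -88 to -84, the GC boxes at -118 to -113 and -105 to -100, and the TATA box match far upstream, at -188 to -183. Over 32851 windows of the same length, 33.8% hold the CCAAT box letters, 32.7% the GC box, 17.8% the cAMP half-site and 12.4% the TATA box. A loose form of the NF-kappaB site (GGG, any 5 bases, then CC), which 45.8% of windows hold, occurred 3 times, once at -10 to -1. It is not in capitals. A form of the interferon-stimulated response element (GAAA, any 2 bases, then GAAA, in 2.98% of windows) was not found in this window. A match is a run of letters and not a measured site. Windows were also given for Ass1 and Slc7a1: the NF-kappaB form occurred 6 times before Ass1 and 5 times before the upstream start of Slc7a1 (overlapping matches counted), and the CCAAT box in neither. Before the downstream start of Slc7a1 neither the NF-kappaB form nor the CCAAT box was found, and a TATA box match lies at -28 to -23.

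**Figure D2:**
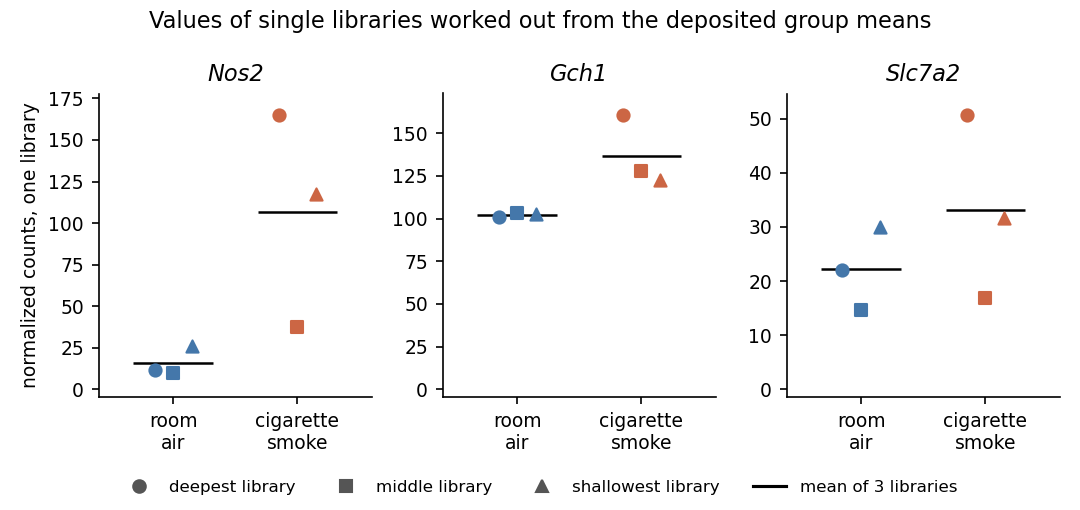
Each panel gives the normalized counts of 1 gene in the 3 room air (blue) and 3 cigarette smoke (orange) libraries on a linear axis of its own, with the marker shape for the depth order within the group and a bar for the mean. Nos2 and Gch1 have all smoke points above all room air points, whereas the groups overlap for Slc7a2.

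The transporters did not pass the threshold. Slc7a2 (ENSMUSG00000031596.15, chromosome 8, 40862396 to 40922308, plus strand, GRCm38), the transporter induced together with Nos2 in activated macrophages, had 22.01, 14.7 and 30.01 normalized counts in the deepest, middle and shallowest room air library and 50.6, 16.9 and 31.7 in the smoke libraries. The deepest smoke library was the highest of all 6 and the middle smoke library lay within the room air range, so the groups overlapped (exact permutation p = 0.4). The log2 fold change taken from the authors' deposited table was 0.64 (SE 0.39 and adjusted p = 0.334), or 1.56-fold with a 95% interval of 0.915 to 2.65. Without the deepest smoke library the log2 ratio of the means, with a pseudocount of 1, was 0.12. Gm26584 overlaps Slc7a2 on the other strand, and whether the authors' counting used strand is not given in the sources used here. Slc7a1 (ENSMUSG00000041313.14, chromosome 5, 148327410 to 148399904, minus strand, GRCm38), the transporter found in most cells, had means of 214.7 and 305.2 and a log2 fold change of 0.50 (SE 0.32 and adjusted p = 0.359) in the authors' deposited table, a 1.41-fold difference with a 95% interval of 0.919 to 2.18. After the trend was removed the values were 0.94 for Slc7a2 (adjusted p = 0.271) and 0.62 for Slc7a1 (adjusted p = 0.453).

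The deepest smoke library, in which Nos2, Gch1 and Slc7a2 each had their highest value, also stood apart in Itgax, the dendritic cell marker that many macrophages share, with 902 reads against 36 and 17 in the middle and shallowest smoke libraries, or 264.0 against 33.8 and 25.7 normalized counts. Of the other dendritic cell markers in the table, Xcr1 and Siglech had no read in it and Zbtb46 had 4. The eosinophil marker Siglecf had 25.5 normalized counts there against 3.76 and 6.04, with Prg2 at 0. The part of these differences in the values of the 3 genes was not tested.

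The enzymes that rebuild arginine had the smallest deposited fold changes of the 6 and did not pass the threshold. Ass1 (ENSMUSG00000076441.9, chromosome 2, 31470207 to 31520672, plus strand, GRCm38), the rate-limiting step of that cycle, had means of 254.7 and 317.1 and a log2 fold change of 0.31 (SE 0.38 and adjusted p = 0.694) in the authors' deposited table. Its interval of 0.738-fold to 2.07-fold does not exclude a doubling. Asl (ENSMUSG00000025533.15, chromosome 5, 130011258 to 130029247, minus strand, GRCm38) had means of 189.6 and 215.7 and a log2 fold change of 0.20 (SE 0.13 and adjusted p = 0.361) in that table, with an interval of 0.967-fold to 1.36-fold. After the trend was removed the values were 0.047 for Ass1 and -0.017 for Asl, whose transcripts have GC contents of 54.7% and 55.5%. No test of the difference between members was made.

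**Figure D3:**
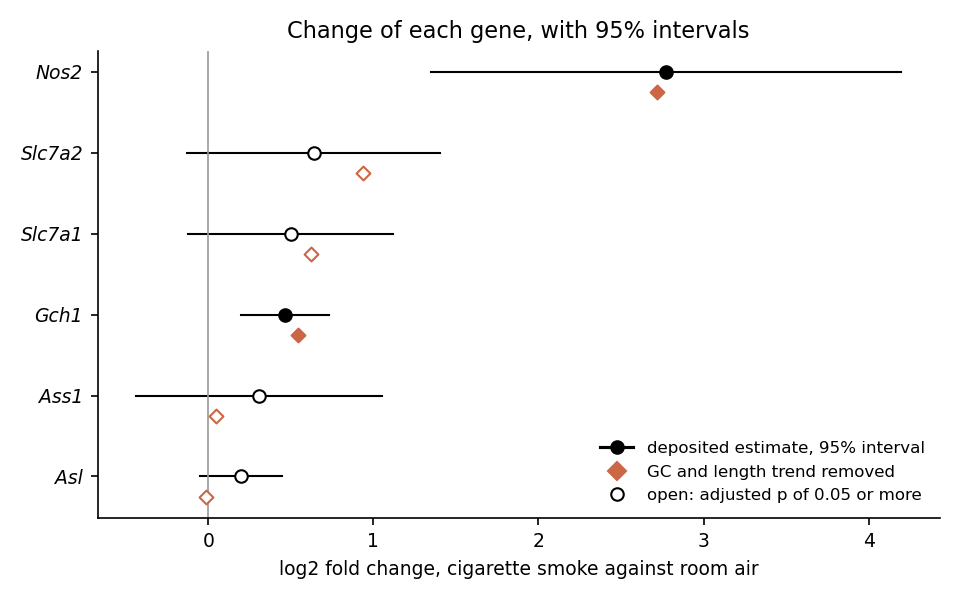
Black circles with bars are the deposited log2 fold changes with 95% intervals and orange diamonds the values after the GC and length trend was removed, with open symbols where the adjusted p is 0.05 or more. Nos2 and Gch1 are filled as deposited and after the trend is removed.

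The calls were also run on the reads of the 6 libraries alone, since the deposited fit shares its spread with 18 libraries that are not analysed here. With limma-voom over the 5006 tested genes with reads for each library, 0 (0%) passed an adjusted p of 0.05 and 1043 had an unadjusted p under 0.05. The deposited table calls 929 of 12082 (7.69%). The 5006 genes, which are of low or moderate count, are 41.4% of those 12082, so the 2 shares are over unlike sets of genes. In the limma-voom fit Nos2 had a log2 change of 2.85 (SE 0.71 and adjusted p = 0.13), Gch1 0.44 (SE 0.14 and adjusted p = 0.159) and Slc7a2 0.83 (SE 0.43 and adjusted p = 0.312). When the deepest smoke library was left out, limma-voom called 510 genes (10.2%), 368 of them higher, and Nos2 was among them with a log2 change of 2.16 (SE 0.49 and adjusted p = 0.0261). Gch1 had 0.30 (adjusted p = 0.169 by limma-voom) without that library.

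Beside the members, 8 lists of related genes held 116 genes, of which 87 were tested. Of these 87, 14 passed the threshold upward in the authors' deposited table and 0 downward, where the DESeq2 fit behind that table gave an unadjusted p under 0.05 to 28 upward and 3 downward. Of all 12082 genes tested, 4.15% were called higher and 3.53% lower, and 1452 upward and 1303 downward had an unadjusted p under 0.05. After the trend was removed 4 of the 14 calls were left.

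Of the tetrahydrobiopterin genes, 1 of 6 tested was called. Akr1b3, an aldose reductase that can take part in a side branch of cofactor synthesis, rose from 631.0 to 884.6 with a log2 change of 0.49 (SE 0.11 and adjusted p = 0.00173) in the authors' deposited table, and it kept its call after the trend was removed. The list median was 0.42. Spr, the reductase of the last step, had 79.2, 74.7 and 88.2 normalized counts in room air and 105.9, 98.7 and 114.7 in smoke, with no overlap, and a deposited log2 fold change of 0.40 (adjusted p = 0.124). Qdpr, which recycles the oxidized cofactor, had 0.46 (adjusted p = 0.0649) in the authors' deposited table. Pts, the enzyme that follows Gch1, had -0.43 (adjusted p = 0.303) in that table, so the values within the route lay on both sides of 0. Gchfr, the protein that gives feedback inhibition of Gch1, had 1, 2 and 1 reads in room air and 5, 3 and 1 in smoke and was not tested.

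The other synthases were near the floor. Nos1 had 3 reads in each room air library and 0, 1 and 3 in the smoke libraries, and Nos3 had 2, 0 and 2 against 3, 4 and 1, so Nos2 supplied most of the synthase reads in both groups. Ddah1, an enzyme that clears methylated arginines that inhibit the synthases, had 2 reads in room air and 0 in smoke, while Ddah2 had 40.8 to 46.1 normalized counts in room air and 35.4 to 51.7 in smoke. In the list of synthases and nitric oxide handling, 1 of 8 tested genes was called: Prmt1, an arginine methyltransferase, rose from 216.2 to 304.3 with a log2 change of 0.49 (SE 0.11 and adjusted p = 0.00134) in the authors' deposited table, against 0.27 (adjusted p = 0.266) after the trend was removed. The list median was 0.052. None of the 7 tested genes of other arginine and ornithine transport and sensing was called, with a median of 0.11.

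Among the other enzymes of this metabolism, 2 genes of polyamine synthesis from ornithine were called. Odc1, ornithine decarboxylase, rose from 132.3 to 444.5 with a log2 change of 1.76 (SE 0.46 and adjusted p = 0.00652) in the authors' deposited table. Srm, spermidine synthase, rose from 72.9 to 174.0, with 66.0, 84.4 and 68.4 normalized counts in room air and 175.3, 162.6 and 184.2 in smoke. Its groups lay far apart, and its log2 fold change there was 1.25 (SE 0.17 and adjusted p = 6.54e-10). Both kept their call after the trend was removed. Sms, spermine synthase, had -0.015 (adjusted p = 0.965), Oat, which directs ornithine toward proline, 0.17 (adjusted p = 0.423), and Aldh18a1 0.59 (adjusted p = 0.354) in the authors' deposited table. In this list of other arginine, ornithine and proline enzymes, 2 of 13 tested genes were called and the median was 0.062.

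Of 18 genes of signals and factors that induce Nos2, 2 were called higher in the authors' deposited table, where 4.15% of all genes tested were: Nfkbia, the NF-kappaB inhibitor that is itself a target of the factor, at 0.56 (SE 0.15 and adjusted p = 0.00967), and the transcription factor gene Cebpb at 1.21 (SE 0.34 and adjusted p = 0.0117). Cebpb had 48.1, 54.2 and 50.4 normalized counts in room air and 168.0, 106.2 and 72.5 in smoke, so all smoke libraries lay above the room air ones. Irf1, a transcription factor gene of the interferon gamma pathway, had 0.38 (adjusted p = 0.55) in that table, and the list median was 0.17. Of 14 signal and factor genes of alternative activation, 3 were called higher: Klf4 at 0.91 (SE 0.27 and adjusted p = 0.0176), Spi1 at 0.41 (SE 0.11 and adjusted p = 0.00813) and Atf4 at 0.42 (SE 0.13 and adjusted p = 0.0248) in the authors' deposited table, all transcription factor genes. Klf4 had 51.7, 58.4 and 51.6 normalized counts in the deepest, middle and shallowest room air library and 162.1, 72.4 and 57.4 in the smoke libraries, so the groups overlapped. Without the deepest smoke library its log2 ratio of the means, with a pseudocount of 1, went from 0.84 to 0.26. Stat6, the factor through which interleukin 4 acts, had -0.0015 (adjusted p = 0.995) in that table. None of these 5 called genes kept its call after the trend was removed, when the log2 values were 0.76 for Klf4, 0.67 for Cebpb, 0.33 for Nfkbia, 0.17 for Atf4 and 0.094 for Spi1.

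Of 15 classical activation genes, 3 passed in the authors' deposited table: Ptgs2, the cyclooxygenase gene, at 2.83 (SE 0.60 and adjusted p = 0.0005), the cytokine gene Il1b at 1.99 (SE 0.58 and adjusted p = 0.0148) and the feedback inhibitor Socs3 at 2.06 (SE 0.55 and adjusted p = 0.00734), and 14 of the 15 had a value above 0 with a median of 1.56. The libraries did not rank alike across these genes. Ptgs2 and Socs3, like Nos2, were highest in the deepest smoke library, at 557.2 and 108.3 normalized counts against 100.6 and 34.8 in the middle one. Without that library the log2 ratio of the means of Ptgs2, with a pseudocount of 1, went from 2.79 to 2.00. Il6, Il12b and Cd40 were highest in the shallowest, at 42.3, 40.8 and 107.2 against 3.22, 2.05 and 19.9 in the deepest. Of 6 tested alternative activation genes 2 were called: the lectin gene Clec10a at 1.30 (SE 0.42 and adjusted p = 0.0343) and the chemokine gene Ccl22 at 2.95 (SE 0.93 and adjusted p = 0.0274) in that table. The median of these 6 was 1.46, with 4 above 0, of which Ccl17 (means of 0.122 and 0.991) and Ccl22 were near the floor. The summed means of the 10 genes of the list in the table were 5149 in room air and 3996 in smoke. Most of both sums was Mrc1, at 3601 in room air and 2196 in smoke. Folr2, Cd163, Ccl24 and Pdcd1lg2 also had lower means after smoke, whereas Clec10a, Mgl2, Egr2, Ccl17 and Ccl22 had higher ones. Ccl22 had 3, 1 and 0 reads in the deepest, middle and shallowest room air library and 3, 6 and 7 in the smoke libraries, so its call rests on few reads and the groups overlapped (exact permutation p = 0.2). Mrc1, the mannose receptor gene, had -0.71 (adjusted p = 0.0836) in the authors' deposited table. After the trend was removed Ptgs2 kept its call (adjusted p = 0.000334), while the log2 value was 1.88 for Il1b (adjusted p = 0.0672), 1.79 for Socs3 (adjusted p = 0.0692), 1.2003 for Clec10a (adjusted p = 0.141) and 2.82 for Ccl22 (adjusted p = 0.0991). These folds stayed close to those deposited, but the 4 calls did not hold.

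**Figure D4:**
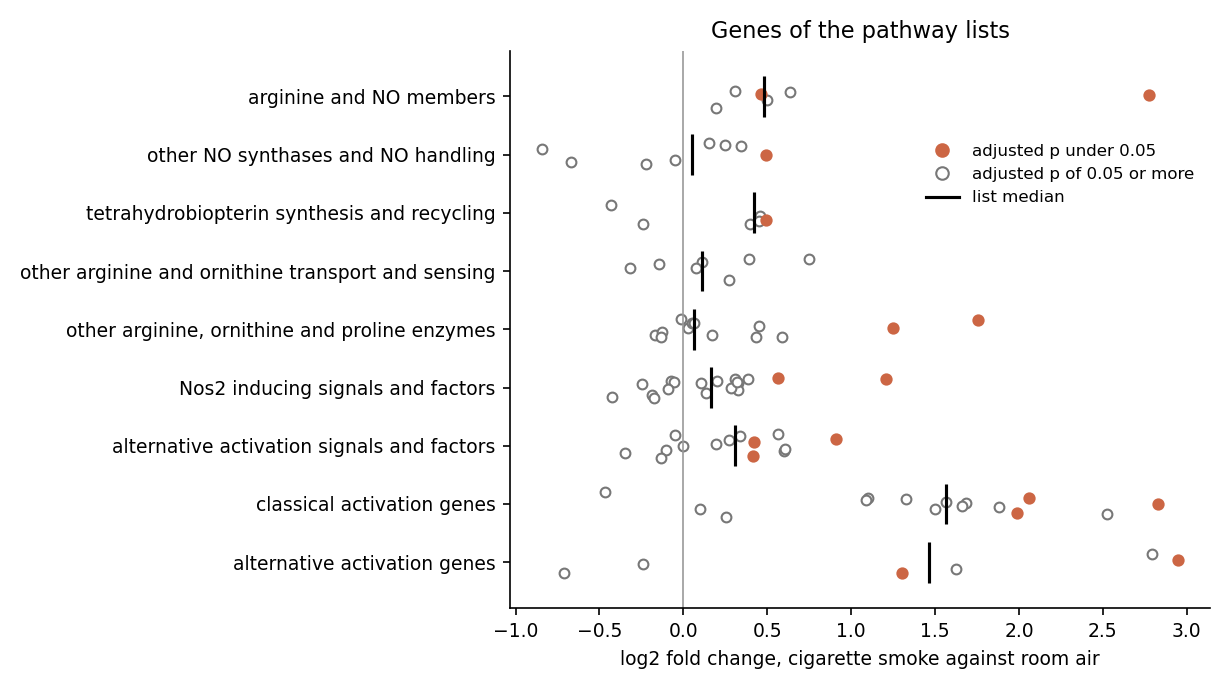
Each point is the deposited log2 fold change of 1 tested gene, filled orange where its adjusted p is under 0.05, with a row per list and a bar at the list's median. The classical activation genes have a median of 1.56 and the alternative activation genes, of which 2 have few reads, one of 1.46, and no filled point lies below 0 in any row.

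The 3 tested genes whose pair of group means lay nearest to that of Nos2, by the distance of log2(mean + 1) over the 2 groups, were Cp, AC122438.1 and Gm21887. The ceruloplasmin gene Cp had nearly the same means, 13.7 and 111.6, but not the same libraries. It had 289.5 normalized counts in the deepest smoke library and 12.2 and 33.2 in the middle and shallowest, overlapping its room air values of 3.48 to 20.9. AC122438.1 was highest in the middle smoke library, at 153.2, where Nos2 was lowest. With 2 means per gene, likeness in the group means left the library values free to differ.

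Splicing was measured per library as a percent inclusion level by JuncBASE, which reads alternative events from junctions. Of the 6 genes only Asl had events in the deposited table, and it had 6. Over its 10376 events, 0 (0%) passed an adjusted p of 0.05 by limma on log2 odds of inclusion, while 1125 had an unadjusted p under 0.05. Retention of the 197-base intron of Asl (chromosome 5, 130024097 to 130024293, minus strand, GRCm38), which lies in the 5′ UTR of the annotated transcripts that retain it, stood at 21.4%, 25% and 12.5% in the room air libraries (replicates 1, 2 and 3) and at 0%, 0% and 15.2% in the smoke libraries in the same order. The groups overlapped through smoke replicate 3, and the difference did not pass (limma, log2 odds -3.21, adjusted p = 0.413). Without smoke replicate 3 it did, at an adjusted p of 0.0205 by limma, as did 1131 events over all genes. An alternative donor within the same intron was used in 8.33%, 11.8% and 0% in room air and 0%, 0% and 6.67% in smoke (limma, adjusted p = 0.633).

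The other events of Asl were rare or near complete. The 447-base intron at 130013516 to 130013962 was retained in 3.12%, 7.50% and 0% in room air and 0% in both smoke libraries with a value. An alternative acceptor that adds 455 bases of the intron at 130016374 to 130018309 was used in 8.33%, 6.25% and 3.57% in room air. In smoke replicates 2 and 3 it was used in 0% and 1.92% (limma, adjusted p = 0.409). The one adding 208 bases of the intron at 130014732 to 130016096 was used in 7.69%, 0% and 0% in room air and 0%, 0% and 2.70% in smoke. The 84-base exon at 130012657 to 130012740, number 14 of 17 in the transcript used, was included in 100%, 100% and 95.7% in room air and 90.9% and 95.1% in smoke replicates 2 and 3 (limma, adjusted p = 0.476). It is coding and holds 28 whole codons, so a transcript without it keeps its frame. It is shown, 5′ to 3′ from the GENCODE M21 transcript, because it is the part of an Asl message that its cassette event adds or leaves out.
Asl exon: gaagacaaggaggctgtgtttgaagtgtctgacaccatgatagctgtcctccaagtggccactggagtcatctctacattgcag
The depth behind each level is unknown. Smoke replicate 1 had no value for 3 of the 6 Asl events and for 4169 of all 10376, against 189 in smoke replicate 2 and 50 in smoke replicate 3. The room air libraries (replicates 1, 2 and 3) had none for 398, 7 and 1 events.

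**Figure D5:**
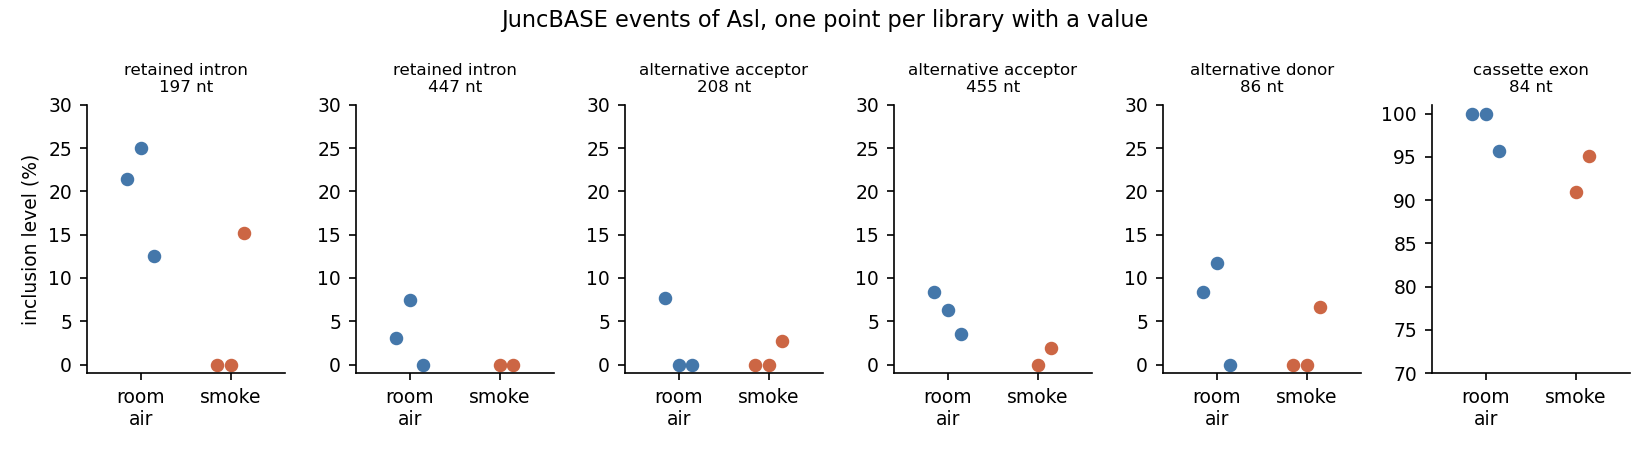
Each panel is 1 JuncBASE event of Asl and each point the inclusion level in percent of 1 library with a value, in room air (blue) or cigarette smoke (orange). The first 5 panels run from 0% to 30% and the cassette exon panel from 70% to 100%, and the level of the 197-base intron in smoke replicate 3, 15.2%, lies within the room air range.

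The authors' deposited rMATS table, with 3887 retained introns of which 565 (14.5%) had a false discovery rate under 0.05, assigned none of its introns to the 6 genes.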

How the data were processed

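RNA from the 6 cultures was sequenced with a directional library kit on an Illumina instrument, per the labels' protocols. The submitters' processing notes name STAR, SAMtools 1.9, bedtools 2.27.1, DESeq2 and the build mm10, without their roles. The signal columns deposited by the authors are group means of normalized counts, from a fit to 24 libraries of which 18 are not used here. The log2 fold changes come from that fit and were deposited by the authors, as were its p-values, raw and adjusted. The percent inclusion levels were deposited by the authors as JuncBASE output. The other quantity deposited by the authors and used here is the rMATS difference of inclusion levels, and the exon starts and ends of their merged annotation tie loci to genes. The 6 per-sample columns of the rMATS table were not used, because its sample sets are not tied to groups.

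The members and gene lists were chosen with earlier results of these data known, and some genes they held are not reported here. As the gene table used here holds group means, expression calls are those of the authors' deposited table, at 0.05 after adjustment over all genes tested, with no refit as the main result. Named genes are the 6 members, list genes past that threshold, any gene of the tetrahydrobiopterin and of the ornithine and proline lists, and the 3 genes nearest to Nos2 in their group means. Genes named outside that rule (other list genes that did not pass, cell type markers and genes named for single libraries) were chosen after their values were seen. A trend in GC content and log2 length (GENCODE M21, natural splines with 4 degrees of freedom, weights 1/SE squared, statsmodels 0.14.6) was removed as an alternative.

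Reads per library were worked out, after the data were seen, from the 7 digits of the group means: each mean is a sum of whole reads divided by 3 size factors, and among several solutions the pair was taken whose negative binomial fit gave the deposited log2 fold change within 1e-05. For 1429 genes solved by their means alone, that fit differed from the deposited value by a median of 9.58e-08 and was within 1e-05 in 96.7%. Size factors give relative depth only. JuncBASE levels p were tested as log2((p + 1)/(100 - p + 1)) by limma 3.58.1 in R 4.3.3, with Benjamini-Hochberg adjustment over all events. The limma tests, the trend removal and the recovery of reads were tested on simulated data with known answers. The recovery left most genes with means like those of Gch1 unresolved, and limma missed most small changes in log2 odds, so 0 splicing calls do not exclude such changes. Intervals of 95% are 1.96 standard errors on each side.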

Additional observations from a re-analysis of the deposited data

How the results depend on the processing

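Removal of the GC and length trend moved the count of genes called from 929 to 153, and a threshold of 0.1 moved it to 1547. The count of members called, 2, was 2 under each of these, without the low-count filter, among genes with a mean of at least 50 and after recentring on the median. With the trend removed Asl had a log2 fold change of -0.017, and the values of the other 5 genes stayed above 0 under each alternative that used all 6 libraries. Over the libraries left out in turn, an alternative chosen after seeing the data, limma-voom gave log2 fold changes of 2.16 to 3.42 for Nos2 and 0.30 to 0.52 for Gch1, with adjusted p-values of 0.0261 to 0.352 and 0.15 to 0.36. The order of levels per kilobase of all exons differed only in places 4 and 5, after smoke, where Nos2 (24.2) lay above Gch1 (21.9). The count of JuncBASE events, 0, was 5 on untransformed levels, 23 among events with a value in all 6 libraries and 0 to 1131 when a library was left out, and an Asl acceptor (208 bases) had log2 odds of -1.08 to 0.64, the highest without room air replicate 1, against -0.44 with all 6. The replicate block gave 0 events, with -3.21 for the 197-base Asl intron (adjusted p = 0.609 by limma). Deviations from the group mean had correlations of 0.018, -0.040 and -0.089 between libraries with the same number, over 5933 events. With 3 libraries in each group these values cannot decide whether such libraries were paired. Requiring a difference of 10 percentage points left 172 of 565 rMATS introns. The causes of these shifts were not tested.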
